A study of Mus musculus with 4 samples.

Results

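Hoxa10 and Hoxa11 are neighbouring genes of the Hoxa cluster on mouse chromosome 6, each read by 1 probe of a cDNA microarray that carried 9480 probes, of which those with a single annotated gene covered 6025 genes. Every probe annotated to 1 of these genes alone was taken, which gave 2 probes for 2 genes. The genes were chosen by their ratios in fosB-null cells, which were among the most positive of the series, so those ratios are given as a description without a test.

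The samples were mouse embryonic stem (ES) cells grown without feeder cells, and per the series title they had been kept 72 h without serum and then 4 h with it. The fosB-null line lacks FosB, which serum induces and which forms part of the dimeric transcription factor AP-1. The fosBd/d line is homozygous for an allele that yields ΔFosB, a truncated form, and no other FosB product. Each mutant was set against wild-type ES cells on 2 two-colour arrays with the dyes exchanged, 4 arrays in all, and the labels name 1 line of each mutant without saying whether arrays shared an RNA extract. The single-gene probes included 0 for Fosb, so the targeted gene was not checked here.

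Hox genes encode homeodomain transcription factors that give cells their position along the body axis. They lie in clusters, and genes at the 5′ end of a cluster, where Hoxa10 and Hoxa11 sit, act in the posterior body. In the mouse, Hoxa10 is required in the uterus for implantation, and Hoxa11 acts in the uterus and, with its paralogues, in the kidney and the forelimb. In undifferentiated mouse ES cells the clusters are largely silenced by Polycomb proteins, and retinoic acid induces them.

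The start-site windows of both genes are shown because FosB acts through DNA and both genes had ratios on one side in fosB-null cells. They come from RefSeq on build GRCm38.p6, minus strand, with 250 bases before and 50 after each start, 5′ to 3′. Hoxa10 has an upstream start in chr6:52240805-52241104 and a downstream start in chr6:52234890-52235189, and the Hoxa11 start lies in chr6:52245761-52246060. Capitals mark the motif letters that were found.

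Hoxa10, upstream start: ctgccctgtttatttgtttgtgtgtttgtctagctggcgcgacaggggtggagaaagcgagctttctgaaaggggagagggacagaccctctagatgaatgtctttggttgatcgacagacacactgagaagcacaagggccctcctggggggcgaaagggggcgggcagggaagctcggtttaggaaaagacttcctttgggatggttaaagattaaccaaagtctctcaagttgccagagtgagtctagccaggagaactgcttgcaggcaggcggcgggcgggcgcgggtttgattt

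Hoxa10, downstream start: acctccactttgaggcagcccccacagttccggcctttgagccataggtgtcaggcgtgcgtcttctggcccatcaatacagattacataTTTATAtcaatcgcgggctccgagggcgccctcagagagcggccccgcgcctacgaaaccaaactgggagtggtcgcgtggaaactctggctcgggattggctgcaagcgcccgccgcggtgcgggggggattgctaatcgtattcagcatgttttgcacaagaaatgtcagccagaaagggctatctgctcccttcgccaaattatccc

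Hoxa11: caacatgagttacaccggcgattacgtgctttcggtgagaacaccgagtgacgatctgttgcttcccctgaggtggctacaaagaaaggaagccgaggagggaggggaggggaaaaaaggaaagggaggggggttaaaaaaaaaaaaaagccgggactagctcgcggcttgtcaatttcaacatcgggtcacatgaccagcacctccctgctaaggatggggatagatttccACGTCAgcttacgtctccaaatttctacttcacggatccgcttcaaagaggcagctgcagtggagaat

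Both strands were searched for the AP-1 letters TGANTCA, the cyclic AMP response element TGACGTCA, its shorter form TGACGT, which every full element contains, and the TATA box TATAAA. The AP-1 letters were in 0 of the 3 windows, beside 7.81% of 32841 RefSeq windows of 300 bases. The short element was in the Hoxa11 window, beside 7.51% of all windows, and the full element was in 0 of the 3, beside 1.79%. The short element also read on the strand opposite to the one printed (ACGTCA), with the first printed base 18 bases before the start. The TATA letters were in the downstream Hoxa10 window, beside 13.6% of all windows. They read on the strand opposite to the one printed (TTTATA), with the first printed base 160 bases before the start. The windows held 12, 21 and 15 CpG dinucleotides in the order printed, against a median of 7 over all windows. Of all windows, 60.4%, 75.2% and 65.4% held fewer than these. These matches describe the letters of these windows only.

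The deposited value is 1 ratio per probe and array, taken as a log10 ratio and given here as log2, so that a value of 1 is a 2-fold ratio. No intensities were used, so a ratio says nothing of how strongly a gene was expressed, and the number of arrays limits the precision. Column medians were 0.00 on all 4 arrays, and the spread over probes was narrower in fosB-null (SD 0.436 and 0.542) than in fosBd/d (SD 0.824 and 0.652).

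The direction of the ratios is not settled. Zeros carried a minus sign on fosB-null replicate 2 and fosBd/d replicate 1 and on neither of the other arrays, which is the mark left when an array is multiplied by -1. Of the arrays with the mutant in Cy3, and of those with it in Cy5, 1 each carried these minus signs. The Cy3 arrays correlated at r = -0.463 across probes and the Cy5 arrays at r = -0.369, as a turned array beside an unturned one would with a shared dye effect. By the dye names (Cy5 over Cy3), positive means less RNA in fosB-null cells and more in fosBd/d cells. By a common mutant-over-wild-type ratio, positive means more RNA in either mutant. Given the dye labels and the minus signs, that reading needs the channels divided in a different order for each mutant. Red stands for Cy3 and green for Cy5 in the labels, and by those words the dye-name reading is turned for both mutants. Signs are given as deposited, and statements on sides of 0 within 1 mutant hold under any of these readings. They do rest on the turning. Both replicates of a mutant also correlated negatively across probes as deposited (r = -0.318 in fosB-null and -0.125 in fosBd/d). With the dyes exchanged and 1 array turned, a shared dye effect would give this too, and its part was not tested.

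In fosB-null cells Hoxa10 had log2 ratios of 3.07 and 3.22 on replicates 1 and 2, the most positive of all 9480 probes on each array. Its mean was 3.15 ± 0.11 (SD, n = 2 arrays), an 8.87-fold ratio. Both arrays gave nearly the same value although the dyes were exchanged. The half-difference between the dye orientations was 0.08, and 77.8% of all probes had a larger one. The gene was chosen by its ratios on these arrays, so close values were partly fixed in advance. With the apparent turning of replicate 2 undone, the ratios would be of opposite sign and average to -0.08.

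Hoxa11 had ratios of 1.68 and 1.31 on the same arrays, with a mean of 1.49 ± 0.26 (SD, n = 2), which is 2.82-fold. It stood 16th from the top on replicate 1 and 291st on replicate 2, and 8th by its mean. Its half-difference between dye orientations was 0.18, near the median of 0.20 over all probes, on the arrays by which it was chosen. As their choice required, Hoxa10 and Hoxa11 lay on the same side of 0 on both arrays. Hoxa10 was further out by 1.40 and 1.91.

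The positive end of the fosB-null ratios was thinly filled. At least 2-fold positive on both arrays were 15 of 9480 probes, or 0.158%, and both Hox probes were among them, as their choice required. Ordered by the lower of both arrays, Hoxa10 came first with 3.07 and the flippase gene Atp8a2 next with 1.89, while Hoxa11 was at 1.31. The last named gene inside the 2-fold limit was Cited1 at 1.05, and the first outside it was Plac1 at 0.95.

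**Figure D1:**
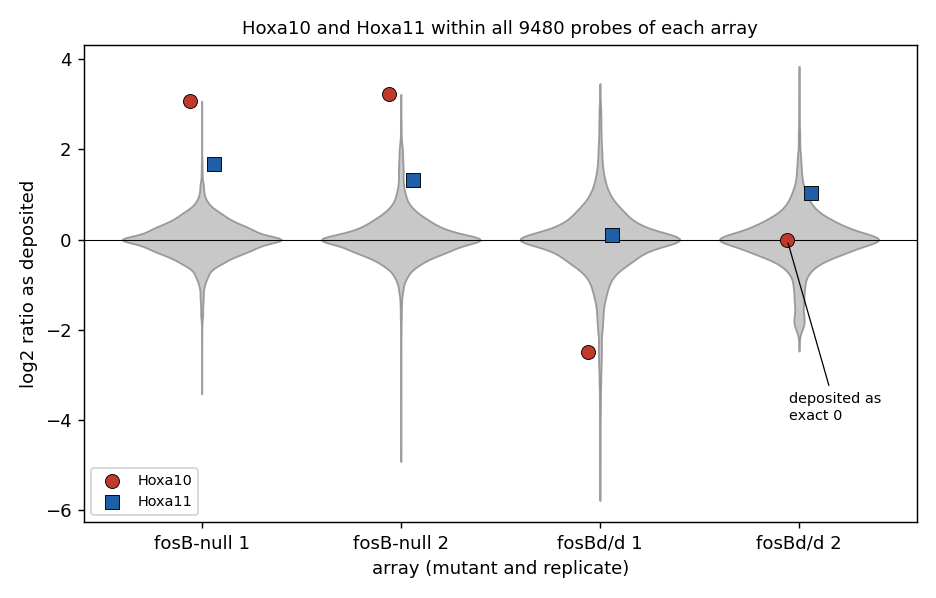
Log2 ratios as deposited (y axis) for Hoxa10 (circles) and Hoxa11 (squares) on the 4 arrays (x axis), over the distribution of all 9480 probes of each array (grey). Hoxa10 sits at the top of both fosB-null arrays (3.07 and 3.22), at -2.49 on fosBd/d replicate 1 and at an exact 0 on fosBd/d replicate 2, while Hoxa11 is positive on all 4.

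In fosBd/d cells the genes parted. Hoxa10 had a ratio of -2.49 on replicate 1 and was listed at exactly 0 on replicate 2. The mean was -1.24 ± 1.76 (SD, n = 2), so the spread was larger than the mean. On replicate 1 it stood 164th from the bottom of 9480 probes. Hoxa11 had 0.10 and 1.03, a mean of 0.56 ± 0.66 (SD, n = 2), and stood 437th from the top on replicate 2.

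The fosBd/d ratios were tested with limma on all probes and arrays, with a dye term and two-sided p-values adjusted by Benjamini-Hochberg. The limma adjusted p was 0.395 for Hoxa10 (unadjusted 0.163) and 0.318 for Hoxa11 (unadjusted 0.0566). Of 9480 probes 0 passed limma at an adjusted p under 0.05, which is 0%, while 1503 had an unadjusted p under 0.05. That fit turned the fosB-null ratios by the dye names, a direction that is not settled. Without that turning, the unadjusted limma p was 0.107 for Hoxa10 and 0.233 for Hoxa11. These p-values reflect only how far arrays differed, and that spread may be technical.

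The Hoxa10 value in fosBd/d depended on the exact 0. With zeros left out, the limma estimate was -2.56. It rests on 1 fosBd/d array and on a dye term set by the fosB-null arrays. No residual degree of freedom was left for this probe, so no p-value is given. With that array left out instead, in a fit without the dye term, the estimate was 0. What a deposited 0 stands for is not given in the sources used here. On fosBd/d replicate 2 the value was exactly 0 for 423 probes, or 4.46%, and for 266 probes that array alone was at 0, as for Hoxa10.

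Of the 294 probes at 0 on fosBd/d replicate 2 but not on replicate 1, 46 were at least 2-fold on replicate 1, and 9 were at least as far from 0 as Hoxa10. That share of 15.6% was close to the 16.2% among probes at 0 on neither array. The same shares were 22.0% against 6.65% for zeros on fosB-null replicate 1, 5.49% against 3.59% for those on fosB-null replicate 2, and 19.0% against 11.7% for those on fosBd/d replicate 1. Hoxa11 had a value other than 0 on all 4 arrays.

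**Figure D2:**
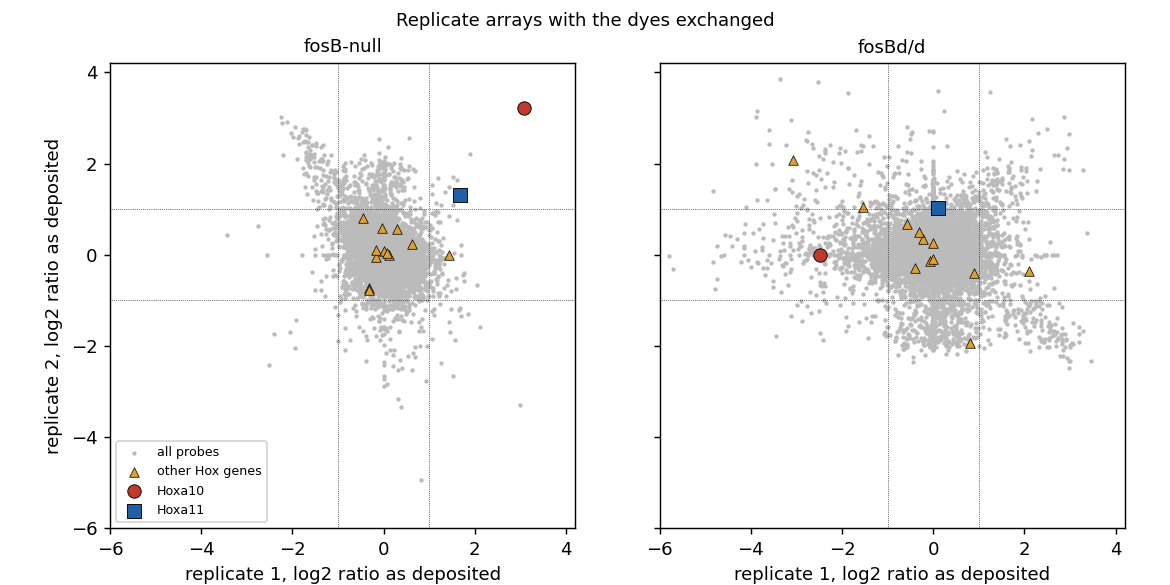
Replicate 1 (x axis) against replicate 2 (y axis), log2 ratios as deposited, for fosB-null (left) and fosBd/d (right), with all probes in grey, the other Hox genes as triangles and dotted lines at 2-fold. In fosB-null, Hoxa10 (3.07 and 3.22) stands alone at the upper right and Hoxa11 (1.68 and 1.31) lies beyond the 2-fold lines, while in fosBd/d Hoxa10 lies on the horizontal zero line.

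Set side by side, the mean of Hoxa10 was 3.15 in fosB-null and -1.24 in fosBd/d, a difference of 4.39 ± 1.25 as deposited (SE from the spread within each mutant). With the fosB-null sign turned, as the dye names read, the means were -3.15 and -1.24 and the difference was -1.90 ± 1.25. The Hoxa10 ratios that were not 0 then all lay on 1 side. With the zero left out as well, the difference was -0.66, with no SE.

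For Hoxa11 the difference was 0.93 ± 0.50 as deposited, between means of 1.49 in fosB-null and 0.56 in fosBd/d. With the fosB-null sign turned it was -2.06 ± 0.50, and the mutants then lay on opposite sides. Read by the colour words, fosBd/d rather than fosB-null is turned, which gives the same sizes with the other sign. These differences include the values that chose the genes and were not tested.

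The other Hox genes had smaller mean ratios in fosB-null cells than Hoxa10 and Hoxa11. The choice of both by their high ratios there largely fixed this in advance. Of 37 listed, 11 were measured by single-gene probes, and 0 were 2-fold on both arrays, beside 0.249% of all genes. Positive on both arrays were 3 of 11, Hoxb1 (0.43 ± 0.20), Hoxc5 (0.42 ± 0.27) and Hoxd12 (0.06 ± 0.03), beside 19.5% of all genes. Negative on both were 2 of 11, Hoxb13 (-0.54 ± 0.30) and Hoxa2 (-0.11 ± 0.08), beside 21.9% of all genes. The median over the 11 was 0.06, against 0.00 over all genes.

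By mean fosB-null ratio the order among the Hox genes ran Hoxa10, Hoxa11, Hoxb7, Hoxb1 and Hoxc5. The ratios of Hoxa10 and Hoxa11 did not overlap. Hoxa11 and Hoxb7 overlapped, since Hoxb7 had 1.43 on replicate 1 and an exact 0 on replicate 2. Hoxb1 and Hoxc5 differed by less than their spread. Ratios of different probes are compared here, and levels are not.

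In fosBd/d cells, 0 of the 11 other Hox genes were positive on both arrays, beside 25% of all genes, and 2 were negative on both, beside 24.2%. Those were Hoxc5 (-0.35 ± 0.08) and Hoxb1 (-0.11 ± 0.05). The remaining 9 had opposite signs or an exact 0 on these arrays. Hoxb7 had -3.06 and 2.08, Hoxa7 2.09 and -0.36, Hoxd9 -1.54 and 1.05, and Hoxb4 0.80 and -1.94. The half-difference of Hoxa10 in fosBd/d, 1.24, was exceeded by 4.64% of all probes.

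**Figure D3:**
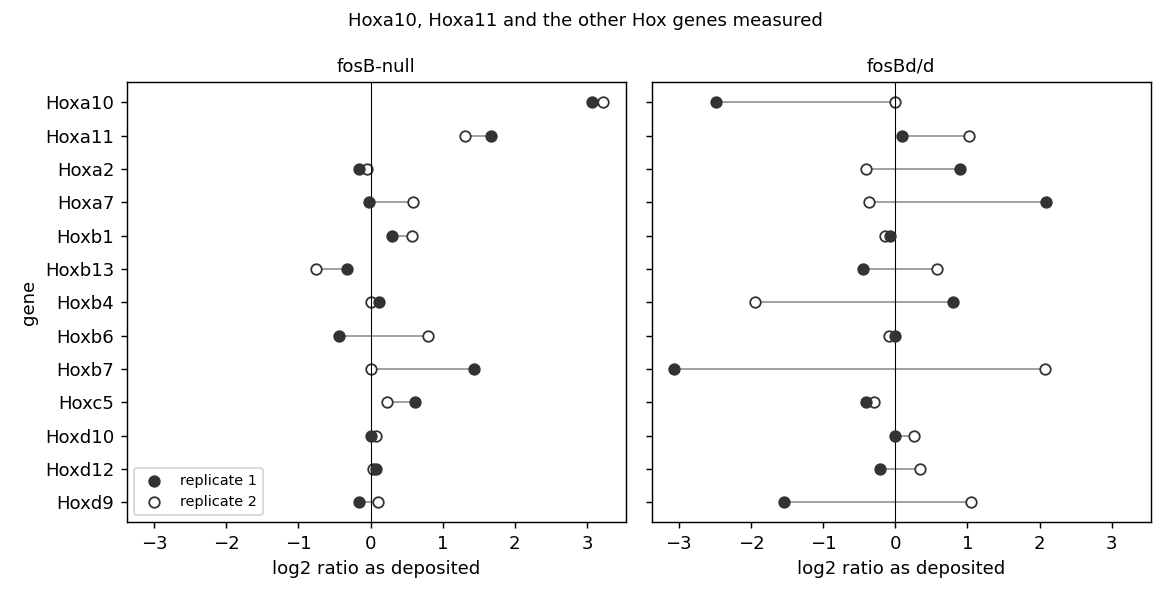
Log2 ratios as deposited (x axis) of Hoxa10, Hoxa11 and the 11 other Hox genes measured (y axis) in fosB-null (left) and fosBd/d (right), with replicate 1 filled and replicate 2 open. Hoxa10 and Hoxa11, chosen by their fosB-null ratios, are the genes beyond 1 on both fosB-null arrays. In fosBd/d several genes, Hoxb7 among them (-3.06 and 2.08), lie on opposite sides of 0.

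Within the Hoxa cluster, 4 of 11 genes had a single-gene probe, and 1 further probe was annotated to a Hoxa gene together with another gene and was not used. Hoxa2 and Hoxa7, at the other end and in the middle of the cluster, had fosB-null ratios of -0.16 and -0.05 and of -0.02 and 0.59. Hoxa10 and Hoxa11, which are adjacent and were chosen by these ratios, were the measured Hoxa genes past 2-fold on both fosB-null arrays. In the RefSeq table (GRCm38.p6) Hoxa11 overlaps the noncoding genes Hoxa11os and LOC115490410, and Hoxa10 overlaps Gm52902. These were not measured by single-gene probes, and which strand and transcript a probe reads is not given in the sources used here.

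The measured genes around the cluster had smaller mean ratios in fosB-null than Hoxa10 and Hoxa11. This was largely fixed in advance, since both were chosen for high ratios there. Among the 10 nearest measured genes, 5 on each side, means ran between -0.22 and 0.67 with a median of 0.14, and 0 were 2-fold on both arrays, beside 0.249% of all genes. The nearest on either side were the adaptor protein gene Skap2, with 0.12 and 0.07, and the ubiquitin ligase gene Znrf2, with 0.42 and -0.0032. The water channel gene Aqp1 had the highest mean, 0.67 ± 1.44, from -0.35 and 1.69, the second of which is above both Hoxa11 ratios. In fosBd/d the median of these 10 genes was 0.16, with means between -1.35 for Pde1c and 0.85 for Aqp1.

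**Figure D4:**
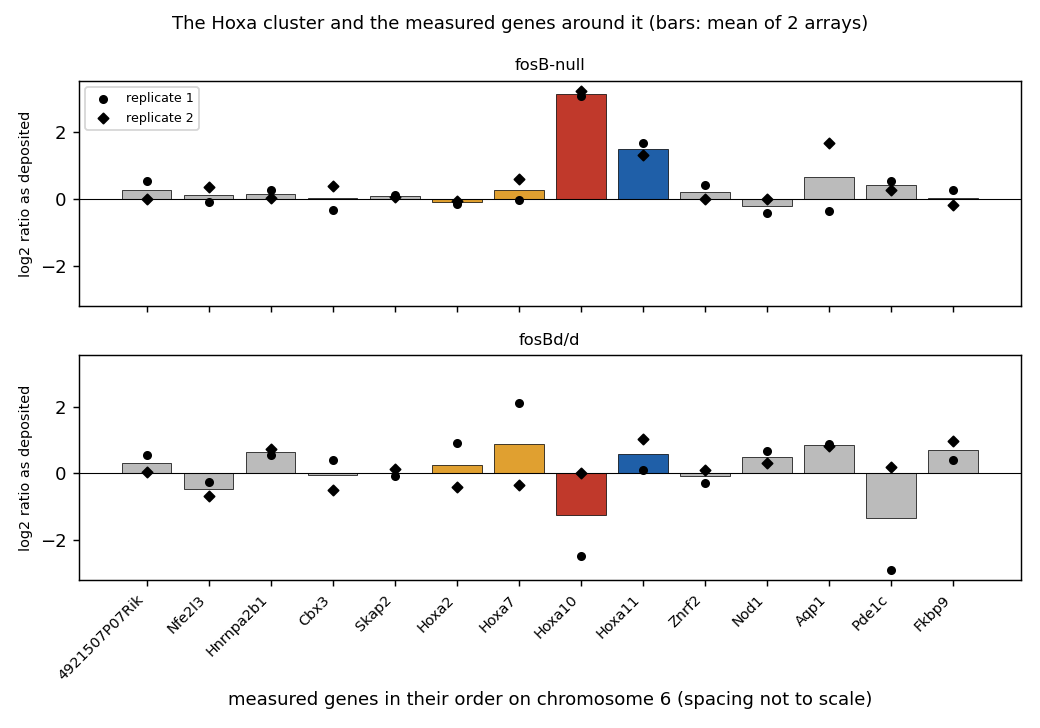
Log2 ratios as deposited (y axis) of the measured Hoxa genes and the 5 nearest measured genes on each side, in their order on chromosome 6 (x axis, not to scale), in fosB-null (top) and fosBd/d (bottom), with bars for the mean of 2 arrays and points for each array. In fosB-null, Hoxa10 (3.15) and Hoxa11 (1.49), which were chosen by these ratios, have higher means than the flanking genes, which lie between -0.22 and 0.67.

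Regulators of Hox genes showed ratios of both signs. Of 30 Polycomb proteins, which silence the clusters, 15 were measured, and in fosB-null 3 were positive and 4 negative on both arrays, beside 19.5% and 21.9% of all genes, with a median of -0.03. Phc1 and Cbx7 are subunits of the Polycomb complex PRC1. Phc1 had -0.58 and -0.41, and Cbx7, which reads the histone mark made by PRC2, had 0.23 and 0.56. Jarid2 and Aebp2, partners of PRC2, had means of -0.33 ± 0.26 and -0.54 ± 0.76. In fosBd/d 5 were positive and 6 negative, beside 25% and 24.2% of all genes, with a median of -0.12, and Pcgf5 had 0.89 ± 0.19 over its 3 probes while Ring1 had -0.45 and -2.24.

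Of 15 Trithorax-type proteins, which keep Hox genes active, 8 were measured. In fosB-null 0 were positive and 4 negative on both arrays, beside 19.5% and 21.9% of all genes, with a median of -0.14. Kmt2a, the histone methyltransferase that maintains Hox expression, had -0.23 and -0.30, and Hcfc1 had -0.34 and -0.52. In fosBd/d 4 were positive and 3 negative, beside 25% and 24.2%, and Kmt2a had 0.37 and 0.07.

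Hox proteins bind DNA with cofactors of the TALE class. Of 9 listed, 4 were measured, with fosB-null means between -0.21 for Meis2 and 0.08 for Pknox1. Meis3 alone was positive on both arrays (0.07 and 0.06) and 0 were negative, beside 19.5% and 21.9% of all genes. In fosBd/d 0 were positive and Pknox1 was negative on both (-0.17 and -0.13), beside 25% and 24.2% of all genes. Of 8 Cdx, ParaHox and Evx genes, Cdx1 and Evx2 were measured. Cdx1, an activator of Hox genes, had -0.37 and -0.07 in fosB-null, against 0.66 and -0.11 in fosBd/d.

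In retinoic acid signalling, 11 of 19 genes were measured, and in fosB-null 1 was positive and 4 negative on both arrays, beside 19.5% and 21.9% of all genes, with a median of -0.05. Stra6, the receptor that takes up retinol, had -0.95 and -1.03 in fosB-null and 1.17 and 0.88 in fosBd/d as deposited. With the fosB-null sign turned, the Stra6 ratios of both mutants lie on 1 side of 0. Crabp1, which binds retinoic acid inside cells, had -0.62 and -0.68 in fosB-null and -0.43 and -0.40 in fosBd/d. The synthesis enzyme gene Aldh1a1 was positive on both fosB-null arrays (0.30 and 0.72). In fosBd/d 4 genes of this list were positive and 3 negative, beside 25% and 24.2%. Of 14 genes of caudal mesoderm and axis patterning 5 were measured. Eomes, a T-box factor of the early mesoderm and endoderm, had 0.31 and 0.63 in fosB-null and 0.34 and 0.51 in fosBd/d. It was positive on all arrays as deposited, and on opposite sides in the mutants with the fosB-null sign turned. In fosB-null 1 gene of this list was positive and 2 were negative, beside 19.5% and 21.9% of all genes, and in fosBd/d 2 were positive and 0 negative, beside 25% and 24.2%.

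Genes known from other work as targets of Hoxa10 or Hoxa11, in several cases in human cells, had ratios of both signs. Of 15 listed, 7 were measured, and in fosB-null 1 was positive and 2 were negative on both arrays, beside 19.5% and 21.9% of all genes, with a median of 0.05. The phosphatase gene Dusp4 had 0.49 and 0.34. Itgb3, the integrin chain described as a HOXA10 target in human endometrial cells, had -0.64 and -0.28, and the growth factor gene Tgfb2 had -0.70 and -0.22. In fosBd/d 1 was positive and 0 were negative, beside 25% and 24.2%, with a median of 0.12, and Itgb3 was at an exact 0 on replicate 1 beside 1.86 on replicate 2.

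Markers of ES cells and of embryonic fibroblasts, the usual feeders, were set beside the Hox pair. Of 17 ES cell markers 5 were measured, of which in fosB-null 4 were below 0 on both arrays and 0 above it, beside 21.9% and 19.5% of all genes, with a median of -0.37. Dppa2 was at -0.50 ± 0.28 and Alpl at -0.37 ± 0.18. Of 19 fibroblast markers 14 were measured, and 5 were negative and 0 positive on both arrays, beside the same shares, while 9 had opposite signs or an exact 0. Their median was -0.11. Tnc had the lowest mean, -0.85 ± 0.03, with the collagen genes Col1a1 at -0.78 ± 0.05 and Col1a2 at -0.73 ± 0.05. Thy1 had the highest, 0.60 ± 0.89, from 1.23 and -0.04, followed by Pdgfrb at 0.37 ± 1.45. In fosBd/d 2 ES cell markers were positive and 2 negative, and 6 fibroblast markers were positive and 4 negative, beside 25% and 24.2% of all genes. Because the values are ratios, they do not show whether a marker was expressed at all, and a different share of cells of a type cannot be told apart from a different amount of RNA per cell. The part of these markers in the Hox ratios was not tested.

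The genes closest to Hoxa10 in their ratios were found by Euclidean distance over the 3 arrays where Hoxa10 was not 0, among 6103 single-gene probes. Atp8a2 was the nearest at a distance of 1.56, followed by the cell adhesion gene Bves (2.56), the chemokine gene Cxcl15 (2.62), the ubiquitin ligase gene Mgrn1 (2.84) and Zer1 (2.98), against a median of 5.13. Atp8a2 had 1.89 and 2.21 in fosB-null and -2.68 and -1.27 in fosBd/d. The second probes of Bves and Zer1 had other values, with -0.04 and 0.90 for Bves and -0.41 and 0.53 for Zer1 in fosB-null. These distances do not depend on the direction of the ratios.

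For Hoxa11, over 4 arrays and 5934 probes, the nearest were the Wnt inhibitor gene Dkk1 (1.11), Eif4g3 (1.22), Habp2 (1.28), the transthyretin gene Ttr (1.28) and the cathepsin gene Ctsh (1.30), against a median of 2.51. Ctsh had 1.72 and 1.29 in fosB-null and 1.28 and 1.57 in fosBd/d. Over the 3 arrays without the exact 0, Hoxa11 ranked 15th among the neighbours of Hoxa10, at a distance of 3.51. These arrays include both fosB-null arrays, whose positive ratios chose both genes, so a near rank was partly fixed in advance. Over all 4, with the 0 included, Hoxa10 ranked 5732nd among those of Hoxa11, at 3.65.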

How the data were processed

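Each array gave 1 value per probe, which the authors deposited as a log ratio of the 2 channels, taken here as log10 because Agilent Feature Extraction, named per the submitters' processing notes, defines its log ratio so. For the software's version, background correction, dye normalization and filters, nothing is given in the sources used here. Values were multiplied by the log2 of 10. Probes were named from a platform annotation of 2007 and updated by gene identifier through RefSeq (GRCm38.p6). Of 9480 probes, 6566 had 1 gene, 392 several and 2522 none listed, and identifiers matched for 6496. Probes of a gene were averaged in lists.

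The fosBd/d ratios were fitted in limma 3.58.1 (R 4.3.3) over 4 arrays, with a coefficient for each mutant and a dye term coded by the dye of the mutant. For that fit the fosB-null ratios were turned to run mutant over wild type by the dye names. This left 1 residual degree of freedom before moderation, and none for Hoxa10 with zeros left out. The fit was also run on simulated data without exact zeros, which checked its code and not its power on these arrays. The members, gene lists and tests were chosen with earlier results of these data known. Genes were named by rule, as members, measured Hoxa genes, the 5 nearest measured genes on each side, the 5 nearest in ratio, and from each list those 2-fold on both arrays plus up to 4 with the highest absolute mean of one sign. Further Hox genes, list genes that give a range, and probes at the 2-fold limit were named after their values were seen. Replicates were numbered in accession order. Alternatives covered zeros, the dye term, single arrays, array scaling, thresholds and the sign of fosB-null.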

Additional observations from a re-analysis of the deposited data

Results flagged for a closer look

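Among 69 genes named by rule, 16 (23.2%) lay on opposite sides of 0 in the mutants on every array as deposited. Over all 6025 genes the share was 14.7%. The rule took list genes of one sign on both arrays of a mutant, and genes close to Hoxa10 in ratio. A higher share was thus partly built in, and these differences were not tested. With the fosB-null sign turned, each of the 16 lies on 1 side in both mutants. Hoxa10 was not among them because of its exact 0 on fosBd/d replicate 2, and Hoxa11 was positive on every array as deposited. As differences of means, fosB-null minus fosBd/d, the values were 4.03 for Atp8a2, 2.53 for Bves, 1.56 for Ring1, 0.84 for Cbx7, 0.77 for Hoxc5 and 0.54 for Hoxb1. On the other side they were -2.01 for Stra6, -0.97 for Tnc, -0.92 for S100a4, -0.85 for Utf1, -0.72 for Phc1, -0.68 for Axin2, -0.65 for Dot1l, -0.59 for Lin28a, -0.51 for Hcfc1 and -0.48 for Kmt2a. With 2 arrays per mutant, no group was large enough to look for a single array apart from the rest.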

How the results depend on the processing

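The fosB-null means kept their sign with either array left out (3.07 to 3.22 for Hoxa10, 1.31 to 1.68 for Hoxa11) and with the arrays scaled to one SD (3.99 and 1.92). With the apparent turning of fosB-null replicate 2 undone, a setting chosen after the data were seen, they were -0.076 and 0.18. In fosBd/d, neither gene passed limma in any setting run. Leaving out an array, which also dropped the dye term, gave estimates of -2.49 to 0 for Hoxa10 and 0.10 to 1.03 for Hoxa11. Over the settings that kept both fosBd/d values of a gene, the smallest limma adjusted p was 0.395 for Hoxa10, in the main fit. For Hoxa11 it was 0.286, with zeros left out. The number of probes past the threshold was 0 in each setting run. The count at an unadjusted p under 0.05 was 1503, and it was 1629 with zeros left out, 709 without the dye term (no replicate block), 897 with scaled arrays, 270 with the fosB-null ratios not turned, 351 on the fosBd/d arrays alone or without either fosB-null array, and 813 and 973 without fosBd/d replicates 1 and 2. With the fosB-null sign turned, the difference between the mutants was -1.90 for Hoxa10 and -2.06 for Hoxa11, and with zeros also left out it was -0.66 and -2.06. Leaving out an array gave 3.15 to 5.64 and 0.47 to 1.39. Probes at least 2-fold on both arrays in either direction numbered 23 in fosB-null, against 103 at 1.5-fold and 40 with scaled arrays. In fosBd/d they numbered 150, against 445 and 93. The cause of these shifts was not tested. No paired analysis was possible because the labels carry no replicate numbers, but the dye term pairs arrays by dye. Signal over background was not analysed here.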
